A study of Mus musculus with 37 samples.

Results

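The genes described here are 46 interferon-stimulated genes of the mouse, among them 7 guanylate-binding proteins (GBPs) and 5 immunity-related GTPases (IRGs), out of 56351 genes in the count table. They were picked by gene symbol, and not by a threshold on the counts. The series asks what sets the lymph nodes of the small intestine apart from other nodes. RiboTag pull-down was used, in which an antibody against the HA tag on the ribosomal protein Rpl22 recovers ribosomes, and with them RNA under translation, from cells that have expressed Cre. A PicoPure kit served for RNA extraction and a poly A kit for the libraries.

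All 37 libraries have one genotype, CD169 Cre KI/KI and Rpl22HA homozygous, so no group differs by an allele or an agent. The groups are spleen, 11 node sites (mediastinal (lung), ileal, ceco-colonic, inguinal, super cervical, deep cervical, jejunal, duodenal, liver, celiac and iliac) with 3 libraries each, and 1 isotype control from the jejunal node. The spleen libraries are named spleen in their titles, while their tissue field reads lymph node. CD169 is the product of Siglec1 and Cre is under its control on both copies, a locus best known for activity in sinus macrophages. The labels name the cells as CD169 macrophages, yet the design text speaks of the tag being switched on across tissues. Whether libraries of one site came from separate animals is not stated in the labels, so the p-values measure the spread between these libraries only, which may be technical.

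Type I and type III interferons signal through a complex that holds Stat2 and Irf9 and binds the interferon-stimulated response element (ISRE) in target promoters. Interferon-gamma acts on its targets through the GAS element, and Irf1, itself a target, carries the signal on to GBP and IRG genes. Sinus macrophages of lymph nodes take up lymph-borne virus and are known as a source of type I interferon. GBPs and IRGs coat the vacuoles of intracellular microbes, while IFIT, OAS and Mx proteins act on viral RNA or capsids.

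Promoters of 4 members on which the site differences below turn are shown, from 250 bases before the start of the gene to 50 bases after it. They come from RefSeq on GRCm38.p6 and are read 5′ to 3′ on the strand of the gene. Capitals mark ISRE matches (GAAA, any 2 bases and GAAA again, on either strand) and GAS matches (TTCNNNGAA, which reads alike on both strands). Gbp2b lies at chr3:142594597-142594896 on the plus strand and holds 1 ISRE match. Irgm1 lies at chr11:48871371-48871670 on the minus strand, where 2 ISRE matches overlap. Igtp lies at chr11:58199306-58199605 on the plus strand with 1 GAS match and 1 ISRE match. Ifit1 lies at chr19:34640639-34640938 on the plus strand with 2 ISRE matches.
Gbp2b: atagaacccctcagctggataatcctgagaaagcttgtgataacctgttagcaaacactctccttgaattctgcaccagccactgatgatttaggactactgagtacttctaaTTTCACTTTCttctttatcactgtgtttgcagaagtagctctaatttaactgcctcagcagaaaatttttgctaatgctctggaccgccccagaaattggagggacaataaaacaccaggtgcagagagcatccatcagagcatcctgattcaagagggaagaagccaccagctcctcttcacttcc
Irgm1: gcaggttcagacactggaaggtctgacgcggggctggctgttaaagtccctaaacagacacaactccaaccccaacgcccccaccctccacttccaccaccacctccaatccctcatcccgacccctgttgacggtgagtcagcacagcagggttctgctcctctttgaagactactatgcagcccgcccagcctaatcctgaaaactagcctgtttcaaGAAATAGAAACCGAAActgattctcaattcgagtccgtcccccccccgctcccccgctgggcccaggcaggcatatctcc
Igtp: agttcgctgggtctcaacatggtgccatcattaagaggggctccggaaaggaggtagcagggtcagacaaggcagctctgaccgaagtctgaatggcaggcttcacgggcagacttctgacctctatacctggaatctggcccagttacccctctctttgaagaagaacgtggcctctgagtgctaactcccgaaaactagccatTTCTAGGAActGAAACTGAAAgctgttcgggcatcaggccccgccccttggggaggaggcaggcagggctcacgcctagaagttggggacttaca
Ifit1: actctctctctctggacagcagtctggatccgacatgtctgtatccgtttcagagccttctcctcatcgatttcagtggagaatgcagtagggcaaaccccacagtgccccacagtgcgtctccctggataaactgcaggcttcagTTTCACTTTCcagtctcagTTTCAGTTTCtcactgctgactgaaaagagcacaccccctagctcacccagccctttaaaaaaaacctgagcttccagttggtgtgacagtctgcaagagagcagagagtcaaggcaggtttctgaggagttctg
A promoter entry was found for 34 of the 46 members. An ISRE match was present in 21 of the 34 (61.8%), against 3.99% of 27025 genes with a promoter window of the same length. A GAS match was present in 13 of the 34 (38.2%), against 9.55% of all. Both elements were found in 8 members (23.5%), against 0.614% of all genes. All 5 GBP promoters with an entry, 3 of 4 IRG promoters and 3 of 4 IFIT promoters held an ISRE match. A match describes these letters only, and no binding was measured.

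Depth differed widely and went with the site. Total counts were 41240156 to 69139450 in mediastinal libraries and 18811172 to 31849079 in ileal libraries, and 1165387 to 16823454 in the spleen, ceco-colonic, inguinal, super cervical and deep cervical libraries and jejunal replicate 2. The other 14 libraries (duodenal, liver, celiac, iliac and jejunal replicates 1 and 3) held only 221911 to 917912 counts and were fitted apart. Within 22 libraries with at least 1000000 counts, 19702 genes passed the filter on low counts, among them 45 of the 46 members; Mx2 did not pass. Levels are CPM (counts per 1000000), adjusted by the trimmed mean of M-values (TMM) unless called plain, and as no gene lengths are at hand they are compared between libraries and never between genes. Of the defining macrophage genes, Siglec1 was at 0 in 6 of the 22 libraries and at most 3.33 plain CPM. Both Siglec1 copies carry the Cre knock-in, so its RNA may not track the number of CD169 cells. Adgre1 was at 0 in 5 libraries and at most 20.4 plain CPM, while Marco reached 118 to 7820 plain CPM. The material is bulk RNA, in which fewer cells of a type and less RNA per cell cannot be told apart. Spleen replicate 3 stands apart, with 1165387 counts of which 42.7% fall on 3 ribosomal features, and results that rest on it are given without it.

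The members were spread unevenly over the 6 node sites with deep libraries, with mediastinal and ileal nodes at the high end and deep cervical nodes at the low end. A difference among these sites was found for 27 of the 45 members (edgeR quasi-likelihood F test, Benjamini-Hochberg adjusted p below 0.05), against 56.8% of all genes tested, so the share of members, 60%, is near the background. The mean level was highest in mediastinal nodes for 23 members, in ileal nodes for 7, in inguinal nodes for 6, and in ceco-colonic, super cervical and deep cervical nodes for 3 each. It was lowest in deep cervical nodes for 20 members, in ceco-colonic nodes for 11, in mediastinal nodes for 2 and in ileal nodes for 0. The highest and lowest sites were not counted over all genes, so these counts do not show whether the order is particular to the members. Among all members the smallest p-value belonged to Gbp2b (adjusted p = 6.19e-09), followed by Ifitm3 (3.09e-05) and Ly6e (0.000126). Next came Gbp5, Ifi47, Gbp7, Gbp3 and Irgm1, with adjusted p from 0.000257 to 0.000403.

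**Figure D1:**
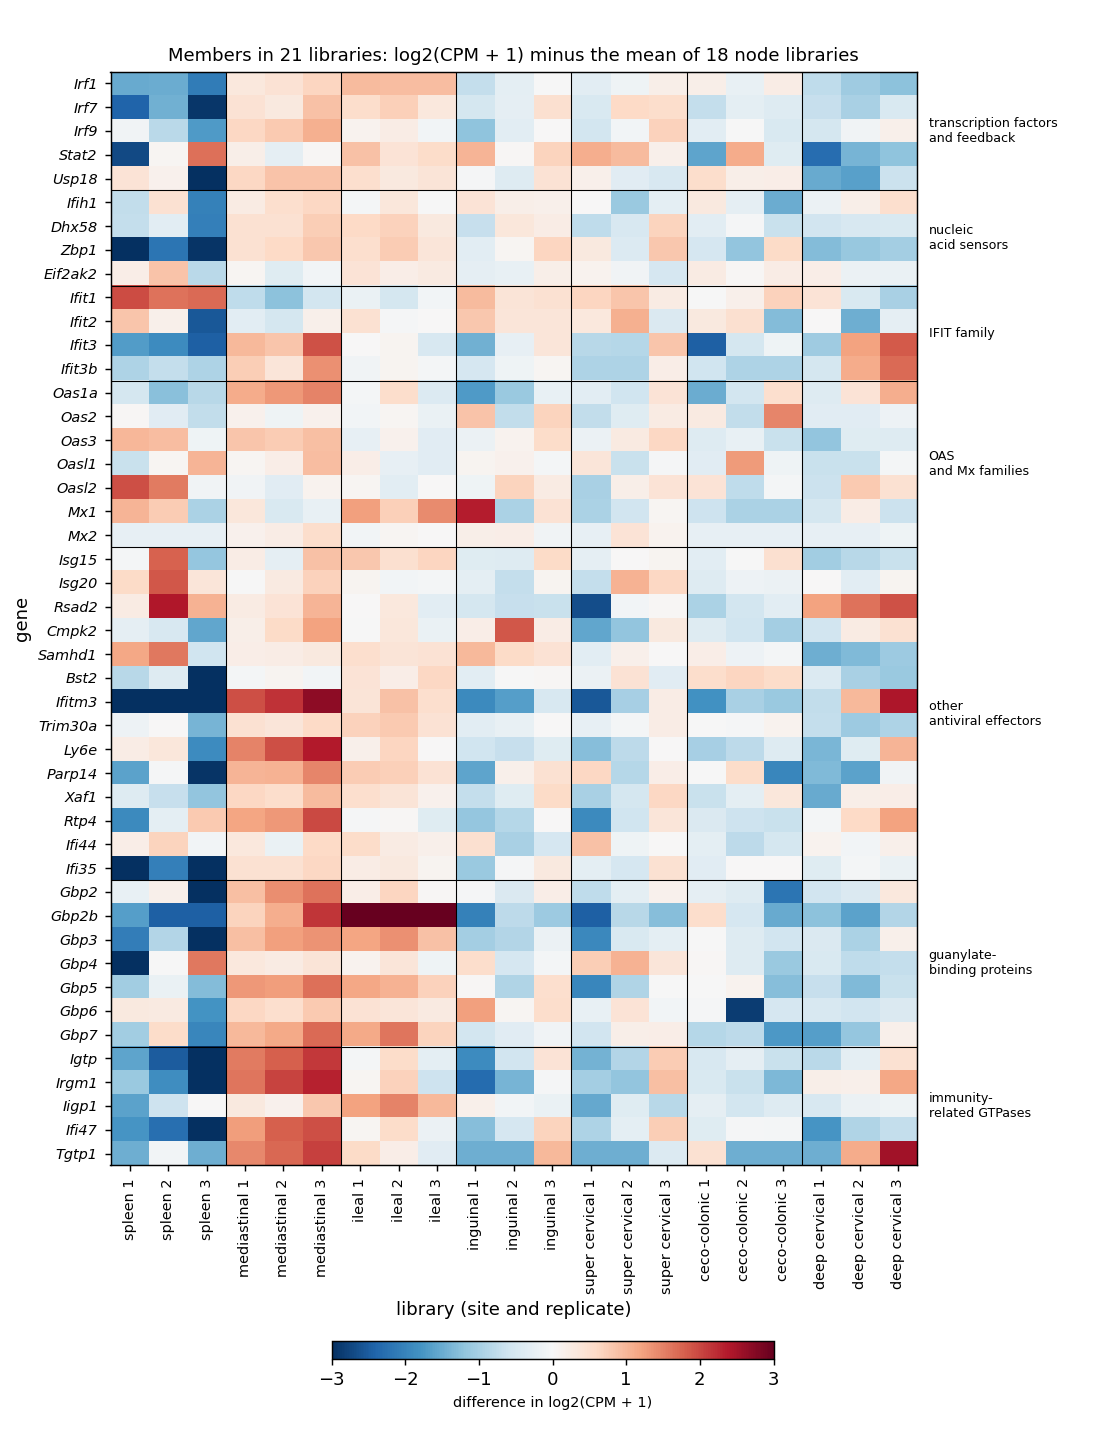
Levels of the members in 21 libraries (columns, 3 a site, spleen first) as log2(CPM + 1) minus the mean of the 18 node libraries (colour, cut at 3 either way), with rows grouped by family. Mediastinal columns are the highest over most GBP and IRG rows, and spleen columns are high at Ifit1 and low at Ifitm3, Ifi35 and Zbp1.

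The GBPs and the IRGs had different site orders when their CPM was summed. Over the 7 GBPs the sum was 142 to 213 CPM in mediastinal libraries and 152 to 227 in ileal libraries, against 34.0 to 74.8 in the ceco-colonic, inguinal, super cervical and deep cervical libraries, so the mediastinal and ileal ranges overlap each other and lie above all the rest. Over the 5 IRGs it was 120 to 189 CPM in mediastinal libraries, above the 50.9 to 88.1 of ileal libraries, and the ileal range in turn overlaps that of inguinal (21.1 to 62.1), super cervical (17.7 to 69.0) and deep cervical libraries (26.4 to 68.9). Ceco-colonic libraries, at 32.1 to 36.6 CPM, lay below every ileal library for the IRGs. Each site is compared below with the mean of the other 5 sites on the fitted log scale, so a fold change need not equal the ratio of the mean CPM values beside it. These comparisons share libraries with each other and are not independent.

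In mediastinal nodes, which drain the lung, GBPs, IRGs and 2 membrane-bound antiviral factors were the members that stood highest. Of the 45 members, 19 were higher and 1 was lower than in the other 5 sites, against 24.3% of all genes higher and 18.1% lower (42.4% called in all). The median log2 fold change was 0.75 over the members and 0.08 over all genes tested, and 37 members had a positive value. By family, 5 of 7 GBPs (median 1.56) and 4 of 5 IRGs (median 2.11) were higher, with 2 of 5 transcription factors and feedback genes, 2 of 6 OAS and Mx genes, 4 of 14 other antiviral effectors, 2 of 4 IFIT genes and 0 of 4 sensors. Library depth went with this site, and within mediastinal nodes 40 of the 46 members were highest in the deepest library, replicate 3 (87%, against 35.3% of all genes). The members' share also exceeded that of all genes at the other sites. It was 58.7% against 36.6% in ileal, 60.9% against 36.8% in inguinal and 60.9% against 41.4% in super cervical nodes. It was 76.1% against 45.1% in deep cervical nodes, 51.1% against 47% in spleen and 40% against 35.3% in ceco-colonic nodes. With every library thinned to 1165831 counts, 14 members were higher and 1 lower, with no share over all genes set beside these counts. Thinning evens out the totals only, and the part of depth in the mediastinal result was not tested.

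Among the transcription factors, Irf9, the DNA-binding partner of Stat2, had 31.5, 35.5 and 43.2 CPM in mediastinal libraries, against 8.16 to 33.4 (median 19.0) in the 15 others. 1 super cervical library, at 33.4 CPM, lies inside the mediastinal range, and the difference was called (log2 fold change 0.97 ± 0.29 SE, adjusted p = 0.00799, edgeR quasi-likelihood test), though not without mediastinal replicate 3. Usp18, which removes Isg15 from proteins and damps the type I receptor, was also higher (1.03, adjusted p = 0.0182) and lost the call without mediastinal replicate 2 or 3 and in the fit of all 36 libraries (0.0642). Irf7, the amplifier of type I interferon output, did not pass at 0.64 (adjusted p = 0.0702), nor did Irf1 at 0.55 (0.0776) or Stat2 at -0.10.

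IFIT genes, whose products bind foreign or uncapped RNA, split in direction. Ifit1 had 23.2, 16.6 and 27.1 CPM in mediastinal libraries, against 19.9 to 78.9 (median 47.9) in the 15 others, and was lower (-1.06 ± 0.32, adjusted p = 0.00881). 1 deep cervical library, at 19.9 CPM, lies inside the mediastinal range and the other 14 lie above it, and the call was lost without mediastinal replicate 2 (-0.89, adjusted p = 0.0834) and in the fit of all 36 libraries (0.0718). Ifit3 went the other way, with 9.77, 8.81 and 19.6 CPM in mediastinal libraries, against 0 to 18.8 (median 3.62) in the others (1.5 ± 0.49, adjusted p = 0.0156). Ifit3b, a near copy of Ifit3, was higher as well (1.85, adjusted p = 0.00683), but kallisto divides reads between such copies, so neither gene's value is certain. Both calls were lost without mediastinal replicate 3, where Ifit3 stood at 1.05 (adjusted p = 0.191).

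Membrane factors gave the smallest p-values in mediastinal nodes. Ly6e, a lipid-anchored surface protein that limits entry of some viruses, had 261, 355 and 482 CPM in mediastinal libraries, against 35.2 to 186 (median 70.2) in the others (2.28 ± 0.34, adjusted p = 2.23e-05). Ifitm3, which blocks virus fusion in endosomes, had 66.8, 79.5 and 113 CPM, against 2.08 to 95.2 (median 9.77) in the others (2.58 ± 0.39, adjusted p = 3.25e-05). For Ly6e the groups do not overlap, whereas for Ifitm3 deep cervical replicate 3, at 95.2 CPM, lies inside the mediastinal range. Rtp4, Parp14, Oas1a and Oas3 complete the effectors that were higher, at 1.32 to 2.02, and Parp14 lost its call without mediastinal replicate 3. Isg15, a ubiquitin-like protein, did not pass at 0.39 (adjusted p = 0.40), and Mx1, a dynamin-like GTPase, stood at -0.06.

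Igtp (Irgm3) and Irgm1, the regulatory IRGs that protect host membranes, had their highest levels in mediastinal nodes. Igtp had 39.4, 47.0 and 59.2 CPM in mediastinal libraries, against 2.72 to 22.5 (median 10.2) in the others (2.11 ± 0.36, adjusted p = 9.48e-05). Irgm1 had 24.6, 33.0 and 40.7 CPM, against 0.68 to 17.7 (median 5.05) in the others (2.35 ± 0.39, adjusted p = 7.78e-05). For both genes every mediastinal library lies above all 15 others, the ileal libraries at up to 19.4 and 12.4 CPM included. Ifi47 (Irgd) was likewise separate, with 36.4, 53.7 and 59.2 CPM against 3.58 to 25.2 (median 11.8) in the others (1.98 ± 0.33, adjusted p = 6.65e-05). Tgtp1, an effector IRG with a near-identical copy in Tgtp2, was higher at 2.16 (adjusted p = 0.0244), a call that was lost without mediastinal replicate 2 or 3. Iigp1 (Irga6) was the IRG that did not pass.

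Of the GBPs, Gbp2 had 15.3, 22 and 26.2 CPM in mediastinal libraries, against 0.905 to 12.6 (median 6.31) in the others, with no overlap (1.63 ± 0.36, adjusted p = 0.000887). Gbp5, known in macrophages for a part in inflammasome activation, had 18.7, 18 and 23.8 CPM against 1.04 to 16.8 (median 6.81), again with no overlap (1.71 ± 0.33, adjusted p = 0.000247). Gbp3, Gbp7 and Gbp2b were higher at 1.37, 1.56 and 1.97, but in each of them the ileal libraries reached or passed the mediastinal ones. Gbp4 and Gbp6 did not pass. GBP genes resemble each other in sequence, so reads may be divided among them in error.

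Genes of other cell types stood higher in mediastinal nodes too, and their part in the result was not tested. Of the macrophage list, 10 of 13 tested genes were higher, with a summed level of 3495 to 4415 CPM in mediastinal libraries, against 1172 to 9194 in the other node libraries. Of the lymphatic endothelium list, 5 of 9 were higher, at 928 to 1124 CPM against 52.7 to 349. Of the T cell list, 6 of 10 were higher (666 to 816 against 89.9 to 768 CPM), and of the natural killer cell list 4 of 5 (63.7 to 77.8 against 8.14 to 59.6 CPM). Of the neutrophil list 2 of 6 tested genes were higher and 1 lower, at 97.9 to 272 against 16.3 to 307 CPM.

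**Figure D2:**
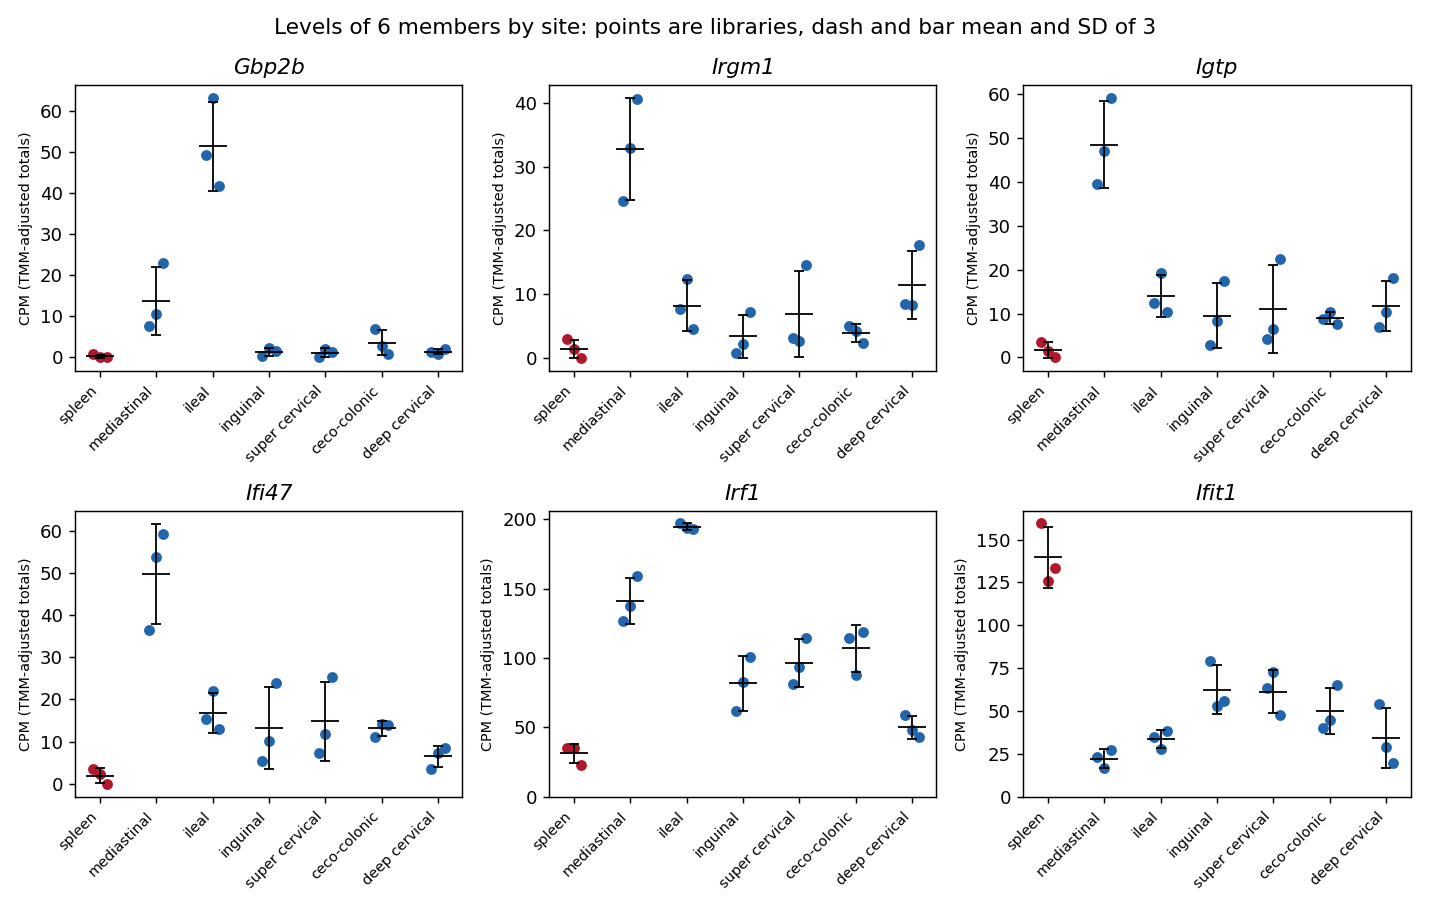
CPM of Gbp2b, Irgm1, Igtp, Ifi47, Irf1 and Ifit1 by site, with 1 point a library and a dash and bar for the mean and SD of 3, spleen in red. Gbp2b and Irf1 are highest in ileal nodes, Irgm1, Igtp and Ifi47 in mediastinal nodes, and Ifit1 in spleen.

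Ileal nodes, which drain the far end of the small intestine, were set apart among the members by Gbp2b. Of the 45 members, 6 were higher and 0 lower than in the other 5 sites, against 1.55% of all genes higher and 0.629% lower (2.18% called in all). The median log2 fold change was 0.30 over the members and 0.01 over all genes, and the family medians ran up to 1.17 for the GBPs, of which 3 of 7 passed. Without ileal replicate 1 or replicate 2, the number of members called was 2, and in a fit of all 36 pull-down libraries it was also 2.

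Gbp2b, a GBP long listed as mouse Gbp1, had 49.4, 63.3 and 41.9 CPM in ileal libraries, against 0 to 23.1 (median 1.97) in the 15 others (4.26 ± 0.35, adjusted p = 3.27e-09). No other site reached the ileal range, and the second highest site was mediastinal, at 7.57, 10.5 and 23.1 CPM. The 1 deep jejunal library, from the neighbouring stretch of gut, held 18.5 CPM, between the 2 sites' means. Ceco-colonic libraries had 6.82, 2.84 and 0.905 CPM, and inguinal, super cervical and deep cervical libraries had at most 2.17 CPM, so these 4 sites overlap one another. The ileal call was kept without any 1 library.

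Iigp1, an effector IRG that disrupts microbial vacuoles, had 26.4, 32.1 and 22.1 CPM in ileal libraries, against 3.12 to 19.6 (median 9.27) in the others (1.53 ± 0.27, adjusted p = 0.000996). Its groups do not overlap, its call was kept without any 1 library, and it is the IRG whose highest site was ileal. Irf1 had 197, 194 and 193 CPM, against 42.8 to 159 (median 93.2), also without overlap (1.11 ± 0.24, adjusted p = 0.00926). The Irf1 call was lost when any ileal library was left out (adjusted p = 0.064 to 0.0835) and in the fit of all 36 libraries (0.468).

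Gbp3 had 70.7, 81.4 and 57.3 CPM in ileal libraries, against 7.28 to 79.8 (median 23.2) in the others (1.34 ± 0.31, adjusted p = 0.0146). Gbp7 had 26.3, 36.3 and 18.7 CPM, against 2.72 to 39.1 (median 8.69) in the others (1.41 ± 0.35, adjusted p = 0.0228). Mediastinal libraries alone reached the ileal range of Gbp3 and Gbp7, and both calls were lost without ileal replicate 1 or 2 and in the fit of all 36 libraries (0.129 and 0.108). Mx1 was low throughout, with 3.49, 2.13 and 4.13 CPM in ileal libraries, against 0 to 8.84 (median 0.326) in the others (2.29 ± 0.62, adjusted p = 0.0413). Inguinal replicate 1 exceeded every ileal library for Mx1, and the call was lost in 10 of 21 fits without 1 library and in DESeq2 (adjusted p = 0.157).

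Apart from Irf1 and Mx1, the genes followed in every comparison did not pass in ileal nodes. Isg15 stood at 0.75 (adjusted p = 0.45), Irf7 at 0.60 (0.46), Stat2 at 0.72 (0.72), Irf9 at 0.05, Ifit1 at -0.35 (0.869) and Ifit3 at -0.46. Gbp2, at 0.30, and Igtp, at -0.05, did not pass either, so within the GBPs and within the IRGs the ileal calls covered some members and not others. Of the macrophage list, 8 of 13 tested genes were higher in ileal nodes, with a sum of 8283 to 9194 CPM in ileal libraries, against 1172 to 4415 in the libraries of the other 5 sites and 7904 in the deep jejunal library. Of the lymphatic endothelium list 4 of 9 were higher, and of the natural killer and T cell lists 0 of 5 and 0 of 10. Within ileal nodes 27 of the 46 members were highest in the deepest library, replicate 2 (58.7%, against 36.6% of all genes). At the thinned depth 5 members were called, with no share over all genes set beside them. Neither the part of the listed cell types nor that of depth in the ileal result was tested.

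Set directly against ceco-colonic nodes, the neighbouring gut site, ileal nodes were higher in 1 of the 45 members and lower in 0 (0.213% of all genes were higher and 0.0508% lower, 0.264% called in all). That member was Gbp2b, with 51.5 ± 10.9 CPM in ileal libraries, against 3.52 ± 3.01 in ceco-colonic libraries (SD, n = 3 each; 3.77 ± 0.62, adjusted p = 0.00273). The call was lost without ceco-colonic replicate 2 (3.63, adjusted p = 0.0583) or replicate 3 (3.36, 0.0629). A positive log2 fold change was seen in 40 of 45 members, with a median of 0.70 against 0.09 over all genes. An unadjusted p below 0.05 was found for 11 members. No share over all genes is set beside the 40 or the 11. Irf7, at 1.02 (adjusted p = 0.246), Irf1, at 0.86 (0.252), and Gbp2, at 1.15 (0.372), are among those that did not pass.

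In deep cervical nodes Irf1, Irf7, Stat2 and Usp18 were lower than in the other 5 node sites, while Rsad2 was higher. Of the 45 members, 3 were higher and 12 lower than in the other 5 sites, against 20.7% of all genes higher and 13.9% lower (34.6% called in all). With DESeq2's size factors in place of TMM the split was 5 higher and 11 lower. The median log2 fold change was -0.50 over the members and -0.0069 over all genes. Among transcription factors and feedback genes 4 of 5 were lower. Without deep cervical replicate 2 the count of members called was 9, as it was in the fit of all 36 libraries. In that fit of all 36 libraries Irf1 (adjusted p = 0.0918), Irf7 (0.175), Trim30a (0.124), Isg15 (0.136), Bst2 (0.273) and Gbp5 (0.0616) lost their calls.

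Irf1 had 59.3, 47.8 and 42.8 CPM in deep cervical libraries, against 61.6 to 197 (median 115) in the 15 others, with no overlap (-1.25 ± 0.29, adjusted p = 0.00149). Stat2 had 1.30, 3.27 and 3.84 CPM, against 2.78 to 23.2 (median 13.9), where 1 ceco-colonic library at 2.78 CPM lies inside the deep cervical range (-2.22 ± 0.60, adjusted p = 0.00517). Irf7 had 14, 11.4 and 16.7 CPM, against 13.9 to 43.4 (median 29.3), where 1 library each of ceco-colonic, inguinal and super cervical nodes lies inside the deep cervical range (-0.92 ± 0.33, adjusted p = 0.0301). The Irf7 call was lost without any 1 of the deep cervical libraries (adjusted p = 0.0585 to 0.154). Usp18 was lower at -1.66 (adjusted p = 0.00464), a call lost without deep cervical replicate 2 (0.0509). Irf9 did not pass at -0.22.

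Zbp1, a sensor of left-handed nucleic acid that triggers cell death, had 5.54, 6.39 and 6.97 CPM in deep cervical libraries, against 6.15 to 27.3 (median 21.1) in the others (-1.57 ± 0.38, adjusted p = 0.00203). Samhd1, which breaks down the nucleotides that viruses need for reverse transcription, had 55.7, 61.1 and 72.3 CPM, against 124 to 305 (median 182), with a wide gap between the groups (-1.56 ± 0.36, adjusted p = 0.00107). Trim30a, a feedback regulator of innate signalling in the mouse, had 27.0, 20.4 and 23.1 CPM, against 36 to 77.7 (median 48.0), again with no overlap (-1.13 ± 0.30, adjusted p = 0.00391). For Zbp1 a single ceco-colonic library, at 6.15 CPM, falls among the deep cervical values. Isg15 had 22.8, 26.5 and 29.9 CPM, against 36.2 to 88.5 (median 50.4), without overlap (-1.07 ± 0.41, adjusted p = 0.042), though the call was lost in 8 of 21 fits without 1 library.

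Bst2, which tethers budding virus to the cell and in mice marks plasmacytoid dendritic cells, was lower at -0.98 (adjusted p = 0.0492), with 352, 240 and 215 CPM against 369 to 742. That call was lost in 16 of 21 fits without 1 library. Gbp2b, Gbp5 and Ifi47 were lower at -1.93, -1.39 and -1.49, with adjusted p from 0.00583 to 0.0137. Without deep cervical replicate 2 the adjusted p of Gbp2b was 0.0538 and that of Gbp5 was 0.103. Among ceco-colonic, inguinal and super cervical nodes, no library exceeded 6.82 CPM for Gbp2b.

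Rsad2 (viperin), whose product makes a chain terminator of viral RNA synthesis, had the smallest p-value of the members that were higher in deep cervical nodes. It had 13.7, 18.5 and 22.7 CPM in deep cervical libraries, against 0 to 11.9 (median 4.08) in the others, with no overlap (2.02 ± 0.36, adjusted p = 5.73e-05). Ifitm3 had 9.77, 34.1 and 95.2 CPM, against 2.08 to 113 (median 11.7), so that the replicates differ among themselves by close to the whole range of the other sites (1.53 ± 0.41, adjusted p = 0.00502). Ifit3b had 0.326, 3.12 and 5.14 CPM, against 0 to 3.91 (2.20 ± 0.55, adjusted p = 0.00251). The calls of Ifitm3 and Ifit3b rest on deep cervical replicate 3, without which Ifitm3 stood at 0.45 (adjusted p = 0.534) and Ifit3b at 1.49 (0.149). Replicate 3, the deepest of the 3 deep cervical libraries, held the highest level of 35 of the 46 members (76.1%, against 45.1% of all genes).

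Of the marker lists, lymphocyte genes were low and red cell genes high in deep cervical nodes, and their part in the result was not tested. Of the T cell list 10 of 10 genes were lower, with a sum of 89.9 to 146 CPM in deep cervical libraries, against 392 to 816 in the other node libraries. Of the B cell list 7 of 8 were lower (285 to 352 against 1242 to 2302 CPM), and of the plasmacytoid dendritic cell list 6 of 9 were lower, though its summed level, 350 to 379 CPM, lay within the 348 to 541 CPM of the other nodes. The neutrophil list summed to 19.2, 307 and 28.4 CPM in deep cervical libraries, of which Ltf made up 288 CPM in replicate 2, and Elane was at 0 in all 3. Red cell genes rose in 6 of 7, to 4911 to 6459 CPM, against 143 to 1348 in the others.

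Few members moved in the other 3 sites. In inguinal nodes, which drain skin, 1 member was higher and 2 were lower, against 12.6% and 5.07% of all genes (17.6% called in all). Gbp2b, at 0.34, 2.17 and 1.54 CPM, and Ifitm3, at 3.74, 4.71 and 11.7 CPM, were lower (-1.99 ± 0.56, adjusted p = 0.016, and -1.73 ± 0.53, adjusted p = 0.0266). Mx1 was higher at 2.33 ± 0.69 (adjusted p = 0.0208), but its 8.84, 0 and 1.59 CPM rest on inguinal replicate 1, without which it stood at 0.68 (0.651). Without inguinal replicate 1 no member was called, and without replicate 2 Ifitm3 lost its call (0.133). In super cervical nodes Gbp2b alone passed and was lower, with 0, 2.06 and 1.25 CPM, against 0.34 to 63.3 (-2.04 ± 0.60, adjusted p = 0.0352), where 5.93% of all genes were higher and 1.15% lower (7.08% in all). That call was lost in 6 of 21 fits without 1 library, with adjusted p of 0.0514 to 0.127, and in the fit of all 36 libraries (0.0746).

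Ceco-colonic nodes had no member past the threshold in edgeR, against 3.71% of all genes (2.86% higher, 0.843% lower). An unadjusted p below 0.05 (edgeR) was found for 11 of the 45 members, against 4227 of all 19702 genes tested. DESeq2 called 5 members and limma voom called 0, with no share over all genes set beside these counts. The median over the members was -0.50, against -0.08 over all genes, and all 7 GBPs and all 5 IRGs had negative values. Gbp2, at -1.08 (adjusted p = 0.199), and Ifit3, at -1.64 (0.203), are examples. Mx1 came to 1 count over the 3 ceco-colonic libraries, which is 0.121 CPM with an exact 95% Poisson interval of 0.00305 to 0.672 for counting error.

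Spleen differed from the nodes in an uneven way, with Ifit1 high and Ifitm3, Ifi35, Zbp1 and 3 of 5 IRGs low. Of the 45 members, 5 were higher and 12 lower in spleen than in the mean of the 6 node sites, against 25.7% of all genes higher and 31.4% lower (57.1% called in all), so the members' share, 37.8%, lay below the background. The median log2 fold change was -0.74 over the members and -0.27 over all genes. Of the IRGs 3 of 5 were lower (median -2.54), of the GBPs 2 of 7, of the transcription factors and feedback genes 2 of 5, and of the sensors 1 of 4. Without spleen replicate 3, 8 members were higher and 11 lower.

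Ifit1 had 160, 126 and 133 CPM in spleen libraries, against 16.6 to 78.9 (median 42.3) in the 18 node libraries fitted against it, with no overlap (1.76 ± 0.26, adjusted p = 2.76e-06). The deep jejunal library, which is not in that mean, had 129 CPM and lies inside the spleen range. In plain CPM the spleen libraries held 91.1, 81.6 and 104 of Ifit1, all below the 137 of the isotype library from the jejunal node. No isotype library of spleen was analysed. Ifit3, a relative, stood at 0.719, 0.481 and 0 CPM, against 0 to 19.6 (median 4.29), and was lower (-3.51 ± 1.04, adjusted p = 0.00591), a call lost without spleen replicate 2 (0.0657). The pair therefore moved in opposite directions, and Ifit1 was the member with the smallest p-value of the spleen comparison. Oasl2, a member of the OAS family, had 30.2, 22.9 and 6.61 CPM, against 3.12 to 13.1 (median 7.35), and was higher (1.42 ± 0.35, adjusted p = 0.00122). Spleen replicate 3 lies inside the node range for Oasl2 and the other 2 lie above it.

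Rsad2 had 6.47, 32.7 and 12.1 CPM in spleen libraries, against 0 to 22.7 (median 5.19) in nodes (1.66 ± 0.37, adjusted p = 0.000438). Samhd1 had 348, 465 and 101 CPM, against 55.7 to 305 (median 178) in nodes (0.98 ± 0.29, adjusted p = 0.0052). For both genes spleen and node libraries overlap, and the calls rest on spleen replicate 2, without which Rsad2 stood at 0.68 (adjusted p = 0.257) and Samhd1 at 0.56 (0.11). In plain CPM Samhd1 was at 199, 302 and 78.6 in spleen libraries, against 211 in the isotype library from the jejunal node. Isg20, an exonuclease that degrades viral RNA, had 1.44, 4.97 and 1.10 CPM, against 0 to 2.36 (median 0.592), with 2 spleen libraries inside the node range (2.10 ± 0.56, adjusted p = 0.00234).

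Irf1 had 35.2, 35.4 and 23.1 CPM in spleen libraries, against 42.8 to 197 (median 107) in nodes, with no overlap (-1.70 ± 0.31, adjusted p = 4.55e-05). Irf7 had 3.60, 8.01 and 2.20 CPM, against 11.4 to 43.4 (median 24.1), also with no overlap (-2.15 ± 0.39, adjusted p = 4.72e-05). Irf9 did not pass at -0.81 (adjusted p = 0.0554), nor did Stat2 at 0.39, whose spleen libraries ran from 0.719 to 34.2 CPM. Isg15, at 46, 166 and 20.9 CPM in spleen libraries, did not pass either (0.70, adjusted p = 0.0903).

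Ifi35, an interferon-induced leucine zipper protein, had 5.04, 16.7 and 1.10 CPM in spleen libraries, against 32.6 to 112 (median 73.3) in nodes (-3.04 ± 0.46, adjusted p = 4.3e-06). Zbp1 had 0.719, 2.56 and 1.10 CPM, against 5.54 to 27.3 (median 19.3) in nodes (-3.09 ± 0.50, adjusted p = 1.15e-05). Ifitm3 had 0, 0.641 and 0 CPM, against 2.08 to 113 (median 15.8) in nodes (-5.46 ± 0.90, adjusted p = 1.81e-05). None of the 3 genes overlaps between spleen and nodes. Bst2 had 264, 361 and 45.2 CPM, against 215 to 742, and was lower at -1.08 (adjusted p = 0.0194), a call lost without spleen replicate 3 (-0.41, 0.226), without 2 other libraries and in the fit of all 36 libraries (0.226).

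Igtp had 3.60, 1.44 and 0 CPM in spleen libraries, against 2.72 to 59.2 (median 10.3) in nodes, where only spleen replicate 1 reached the lowest node library (-3.06 ± 0.65, adjusted p = 0.000281). Ifi47 and Irgm1 were lower at -2.86 and -2.54 (Irgm1 not without spleen replicate 2, adjusted p = 0.0532), and the 5 IRGs summed to 11 to 13.3 CPM in spleen libraries, below the 17.7 to 189 of the node libraries. Among the GBPs Gbp3 was lower at -1.75. Gbp2b came to 1 count over the 3 spleen libraries, which is 0.966% of the node mean with an exact 95% Poisson interval of 0.0245% to 5.38% for counting error. Gbp2 did not pass at -0.49, nor did Mx1 at 1.18.

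Other cell types differed between spleen and nodes as well, and their part in the result was not tested. Red cell genes were higher in 7 of 7, at 10686 to 72503 CPM in spleen libraries, against 143 to 6459 in node libraries. Of the macrophage list 7 of 13 tested genes were lower, at 212 to 3850 against 1172 to 9194 CPM, and of the T cell list 8 of 10 (89.3 to 252 against 89.9 to 816 CPM). Lymphatic endothelium genes were lower in 4 of 9, at 12.1 to 25.8 against 52.7 to 1124 CPM. Plasmacytoid dendritic cell genes were higher in 2 of 9 and lower in 2, while their sum, 475 to 899 CPM, was within or above the 348 to 541 CPM of the nodes.

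**Figure D3:**
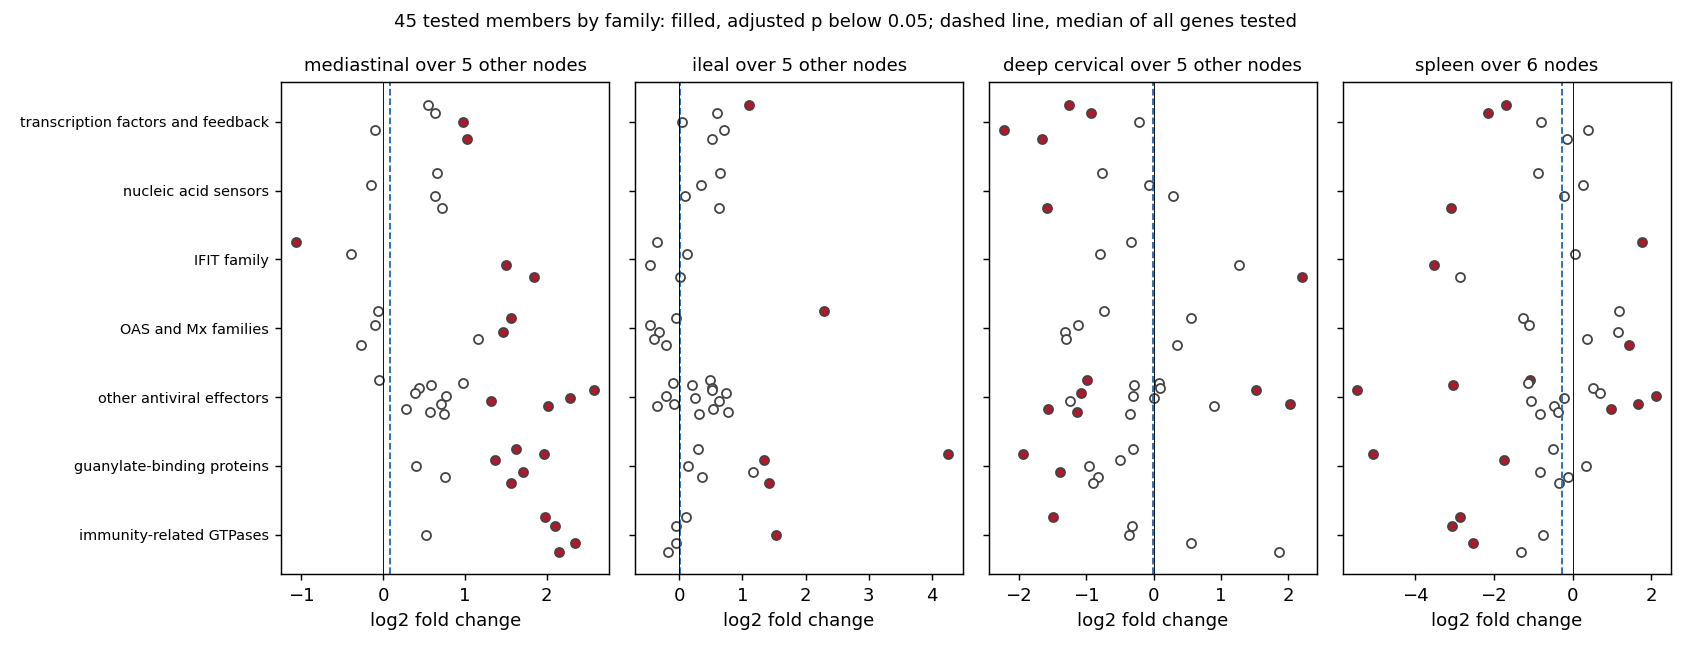
Log2 fold changes of the 45 tested members by family in the mediastinal, ileal, deep cervical and spleen comparisons, with filled points for adjusted p below 0.05 and a dashed line at the median of all genes tested. GBPs and IRGs lie to the high side in mediastinal nodes, Gbp2b is the outlying point in ileal nodes, and 4 of 5 transcription factor and feedback genes are filled on the low side in deep cervical nodes.

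A further 11 of the 45 members passed in none of the 9 tests over the deep libraries. The share of all genes that passed in none was not counted, so the 11 cannot be set against a background. They were the sensors Ifih1 (Mda5), Dhx58 (Lgp2) and Eif2ak2 (Pkr), with Ifit2, Oas2, Oasl1, Cmpk2, Xaf1, Ifi44, Gbp4 and Gbp6. Eif2ak2, a kinase that stops translation on sensing double-stranded RNA, had site means between 51.1 and 69.3 CPM over spleen and the 6 node sites. Xaf1, which did not pass either, had site means spread more widely, between 18.7 and 52 CPM. Single libraries of Eif2ak2 spread more than its site means, with 65.5, 103 and 32.0 CPM in spleen. Mx2, left out by the filter on low counts, was at 0 in the spleen and ceco-colonic libraries and at most 0.714 CPM elsewhere.

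The interferon genes themselves were at the edge of detection. Of 21 ligand genes, 11 had no count in any of the 36 pull-down libraries, the other 10 came to 82.9 counts in all, and none reached 10 counts in a library. Ifng, the gene of interferon-gamma, had 32.6 of those counts. No ligand level can therefore be set beside the targets.

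Receptor and signalling genes are set beside the shares over all genes, which were 24.3% higher and 18.1% lower in mediastinal nodes, 20.7% and 13.9% in deep cervical nodes, and 25.7% and 31.4% in spleen. Of 6 receptor genes 3 were higher in mediastinal nodes, 1 was higher in deep cervical nodes and 5 were lower in spleen. Of 17 signalling genes 12 were higher and 2 lower in mediastinal nodes, 3 were lower in deep cervical nodes, and 2 were higher and 13 lower in spleen, where Myd88, the adaptor of Toll-like receptors, stood at -5.42. In ileal nodes 0 of the 6 receptors and 0 of the 17 signalling genes passed.

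Interferon targets outside the 46 members were counted against the same shares, with 1.55% of all genes higher in ileal nodes. Of 40 tested genes from a list of other interferon-stimulated genes, 23 were higher and 2 lower in mediastinal nodes, 5 higher and 14 lower in deep cervical nodes, 7 higher and 17 lower in spleen, and 0 passed in ileal nodes. Of 18 tested genes tied to interferon-gamma, 8 were higher and 1 lower in mediastinal nodes, 0 higher and 9 lower in deep cervical nodes, 1 higher and 8 lower in spleen, and 2 higher in ileal nodes. The 2 ileal genes were Gbp8 (1.43 ± 0.37, adjusted p = 0.0299) and Cxcl10, a chemokine for activated T cells (1.60 ± 0.36, adjusted p = 0.0117). In mediastinal nodes the smallest p-values of these lists belonged to Ifi30, a lysosomal reductase of antigen processing, with 257 CPM against 32.7 (3.11 ± 0.35, adjusted p = 6.23e-07), and B2m, the light chain of class I MHC, with 428 against 80.1 CPM (2.47 ± 0.30, adjusted p = 1.3e-06).

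In the 14 shallow libraries only 4 members passed the filter on low counts, and 0 of these 4 differed among the 5 sites (0 also at an unadjusted p below 0.05; 6.95% of the 2777 genes tested were called). Ifit1, the most counted of them, held 45.9 to 74.5 plain CPM in iliac libraries and 77.6 to 114 in jejunal replicates 1 and 3. The other libraries held at most 31.6 plain CPM (edgeR quasi-likelihood F test, adjusted p = 0.371). The 3 ribosomal features took 74.3% to 85.6% of counts in duodenal, liver and celiac libraries. In the iliac libraries and jejunal replicates 1 and 3 they took 39.0% to 60.3%, and their part in the plain CPM was not tested. The members together came to 30.6 to 236 counts a library, so differences between these sites were not detectable at this depth for most of them. Gbp2b had 0 counts in the duodenal and liver libraries, and 10 or more pooled counts were reached by 4 members in duodenal, 5 in liver, 10 in celiac and 11 in iliac nodes.

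The isotype control, a jejunal node taken through the pull-down with an antibody of no set target, measures background. It is a single library, so there is no test, and values are plain CPM over totals. Among 31 members with at least 10 counts over it and the 3 jejunal libraries, 10 were at least 4-fold higher in the jejunal pull-down and 4 at least 4-fold lower, against 19.4% of all genes higher and 11% lower (30.4% in all). With TMM-adjusted totals the split was 5 higher and 8 lower, and without jejunal replicate 2 it was 3 higher and 6 lower.

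Bst2 had 109, 389 and 3.73 CPM in jejunal libraries, against 8.71 in the isotype library. Isg15 had 7.69, 35.2 and 14.9 CPM, against 1.24 in the isotype library (95% Poisson interval 0.44 to 2.61). Gbp2b had 0, 11.3 and 7.56 CPM, against 0 counts in the isotype library, a ratio of means of at least 10.5 at a floor of 3 counts. For Bst2 the isotype value lies within the jejunal range, for Isg15 it lies below all 3 libraries, and for Gbp2b jejunal replicate 1 is at 0 as well.

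Other members were as high or higher in the isotype library. Some of these were called between sites above. Ly6e had a jejunal mean of 18.5 CPM against 49.9 in the isotype library, and Gbp7 had 3.70 against 16.9. Parp14 had 1.63 against 6.56 and Usp18 had 0.528 against 3.48. Ifit1 had 90.2 ± 20.9 CPM in jejunal libraries (SD, n = 3), against 137 in the isotype library (127 to 148), and Samhd1 had 76.3 ± 55.0 against 211 (198 to 224). Stat2 had 0, 7.68 and 0 CPM in jejunal libraries, against 22.9 (19.0 to 27.6). In plain CPM the mean levels of Ifit1, Samhd1 and Stat2 in jejunal pull-down thus did not exceed this background. The 3 ribosomal features took 46.8%, 15.5% and 60.3% of counts in jejunal replicates 1, 2 and 3, against 6.5% in the isotype library. Plain CPM keeps these features in the totals, and levels outside them were not compared. No isotype library was analysed here for the other sites.

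**Figure D4:**
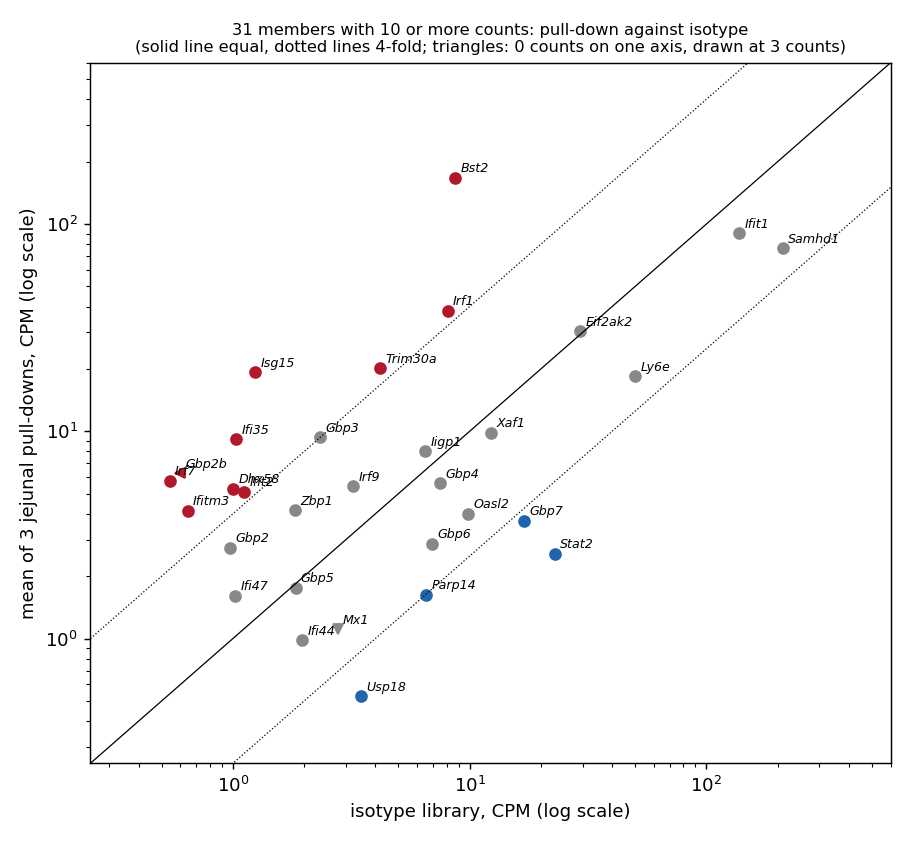
Mean plain CPM of the 3 jejunal libraries and plain CPM of the isotype library for 31 members on log axes, with a solid line of equality and dotted lines at 4-fold; triangles mark Gbp2b and Mx1, which had 0 counts on one side and are drawn at 3 counts. Bst2 and Isg15 lie on the jejunal side and Stat2 and Gbp7 on the isotype side.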

How the data were processed

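RNA from RiboTag pull-down was measured in 36 libraries of 11 node sites and spleen and in 1 isotype library. The deposited table holds estimated counts per gene, of which 99.3% of non-zero values are not whole; the submitters' processing notes list the tools kallisto, edgeR and limma without versions, and the builds GRCm39 and mm10 without saying which was used for counting. Strand is not stated. The authors' estimated counts were rounded for the tests.

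Genes passing filterByExpr (minimum count 10, total 15) in the 22 libraries with at least 1000000 counts were fitted with edgeR 4.0.16 in R 4.3.3. The fit used TMM and robust quasi-likelihood by site, with no replicate block and edgeR's default prior count. The p-values were adjusted by Benjamini-Hochberg over all genes tested and called below 0.05. A prior count of 2 was used only for the log2 CPM in the check of replicate numbers. Errors are standard errors of log2 fold changes; ± beside CPM is an SD. The 14 shallow libraries had a fit of their own. The isotype library was compared by fold (4-fold, at least 10 counts over 4 libraries). Its intervals, at 95%, are exact Poisson and cover counting error only. The floor is 3 counts over the summed total of a group, which for the isotype is its single library. The pipeline was tested on simulated data: in the ileal comparison of 19702 genes, 77 of 100 genes changed 4-fold and 8 of 100 changed 2-fold were recovered, with 8 false calls.

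Alternatives were DESeq2 1.42.0, limma 3.58.1 (voom), other size factors, no filter, all 36 libraries, thinning to one depth, a replicate block and leaving out each library. Thinning to one depth was chosen after seeing the data. The members, the gene lists and the marker lists were chosen with earlier results of these data known. Named are all members that passed where 8 or fewer did, otherwise the 4 smallest p-values in each direction (8 in the F test), and always Irf7, Irf9, Stat2, Irf1, Isg15, Ifit1, Ifit3, Mx1, Gbp2 and Igtp; members named beyond this were chosen after their values were seen.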

Additional observations from a re-analysis of the deposited data

How the results depend on the processing

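No called gene changed its direction under any alternative, while 20 gene values that were not called did under at least 1. In jejunal over isotype, the split of 10 higher and 4 lower became 5 higher and 8 lower with TMM-adjusted totals and 3 higher and 6 lower without jejunal replicate 2. Counts of members called changed by more than 1.5 times as follows. With DESeq2's size factors in edgeR, 1 member was called in ceco-colonic nodes, 5 in inguinal nodes and 2 in ileal over ceco-colonic nodes. With no filter on low counts, 2 were called in ceco-colonic, 5 in inguinal and 2 in super cervical nodes, 5 in ileal over ceco-colonic nodes and 1 among the shallow sites. DESeq2 called 5 in ceco-colonic, 9 in inguinal and 2 in super cervical nodes and 7 in ileal over ceco-colonic nodes, and limma voom called 0 in super cervical nodes. In the fit of all 36 libraries, 2 were called in ileal, 0 in super cervical and 9 in deep cervical nodes, and 16 differed among the 6 sites. At the thinned depth, 1 was called in ceco-colonic and 0 in super cervical nodes and 2 in ileal over ceco-colonic nodes. The cause was not tested. DESeq2's size factors moved the all-gene median log2 fold change to 0.20 in deep cervical nodes (-0.0069 with TMM), to -0.09 in spleen (-0.27) and to -0.22 in ceco-colonic nodes (-0.08).

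With 1 library left out, the count ran from 2 to 7 in ileal, 0 to 3 in ceco-colonic, 0 to 6 in inguinal, 0 to 2 in super cervical, 9 to 18 in deep cervical and 14 to 29 in mediastinal nodes, 0 to 3 in ileal over ceco-colonic nodes, 15 to 22 in spleen, 21 to 32 among the 6 sites, 0 to 0 among the shallow sites and 9 to 17 in jejunal over isotype.

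Not every pair of libraries with the same replicate number deviated together: r had a median of 0.02 and exceeded 0.1 in 16 of 63 such pairs, against -0.02 and 19 of 126 for pairs with different numbers. For each of the 21 libraries, r was averaged over the libraries of other sites with each of the 3 replicate numbers. The mean was highest for its own number in 12 of them, which is a hint from the data and not from the design. With the replicate block, 1 member was called in ceco-colonic and 5 in inguinal nodes and 3 in ileal over ceco-colonic nodes. For low members such as Mx1, Oas2 and Isg20, depth limits what can be seen.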
